A study of Mus musculus with 10 samples.

Results

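The genes described here are 42 cell cycle and proliferation genes, taken by name from the deposited table of FPKM values (reads per gene scaled by gene length and library size), which lists 54532 genes. They comprise 11 genes of DNA replication, 25 genes of mitosis, 3 cyclins of the G1 and S phases, and 3 transcription factors of the cell cycle, and all 42 were found in the table. Liver RNA of 10 mice was sequenced in bulk. The mice had a C57BL/6J background, were put on HFD at 6 weeks of age, stayed on it for 7 weeks, and went 5 h without food. The construct places murine ASK1 cDNA behind a lox-stop-lox cassette at ROSA26, and ASK1f/f denotes animals homozygous for it, here the 5 control littermates. The 5 ASK1+hep mice came from crossing this line to Alb-Cre, a Cre driven by the albumin promoter, which removes the stop cassette in hepatocytes. Its removal in other cells of the liver is not described in the sources used here. Whether ASK1+hep mice had 1 or 2 copies of the construct, and the Cre genotype of the controls, are not given in the sources used here. All 10 libraries held reads of Y-linked genes and at most 3 reads of Xist.

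Most hepatocytes of an adult liver rest outside the cell cycle and enter it again after loss of tissue or injury. On entry, D-type cyclins and then E-type cyclins release E2F transcription factors, which switch on the genes that license replication origins and supply nucleotides. Later, in G2, the FOXM1 and B-MYB programme switches on the genes of mitosis, many through paired CCAAT boxes and cell cycle homology regions in their promoters, so that replication genes and mitosis genes mark different phases.

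Below, values by liver follow the order of replicates 1 to 5 of each label. The libraries held 13367742 to 16163378 reads on genes, recovered from the FPKM values. Map3k5, the gene of ASK1, was at 4.71 to 6.88 FPKM in 4 of the 5 ASK1f/f livers and at 7.68 to 16.4 FPKM in the 5 of ASK1+hep. In contrast, the library labelled ASK1f/f replicate 5 had 19.8 FPKM, the highest of the 10 and against its label. Where leaving it out moved a member's estimate by over 1.5 times or turned its sign, the value without it is also given. The same library had the highest summed level of 8 Kupffer cell and macrophage markers (160 FPKM, against 93.3 to 115 in the other libraries labelled ASK1f/f and 60.1 to 149 in those labelled ASK1+hep). By estimate all 8 of these markers were lower in ASK1+hep, and 0 passed the test. The library labelled ASK1f/f replicate 5 also had the highest summed level of 4 neutrophil markers (15.8 FPKM, against 1.62 to 8.11 in the other 9), with Ly6g under 0.1 FPKM in every library. Its summed level of 5 hepatocyte markers, 29246 FPKM, was the lowest of the 10. Of these markers, Alb (17852.5 FPKM, against a lowest of 14692.1 FPKM) and Ttr (3651.4 FPKM, against a lowest of 3336.5 FPKM) were not lowest there. The 5 markers of erythroid precursors summed to 68.4 to 72.7 FPKM in ASK1f/f and 61.0 to 123 FPKM in ASK1+hep, nearly all from Alas2 (32.1 to 64.3 FPKM) and the globin gene Hbb-bt (15.99 to 58.3 FPKM), while Hemgn and Epb42 were under 0.1 FPKM in every library. Of the 2 of them tested, Hbb-bt was at an unadjusted p under 0.05, higher in ASK1+hep. The 4 markers of myeloid progenitors summed to 0.606 to 11.4 FPKM in ASK1f/f and 0.692 to 4.22 FPKM in ASK1+hep, with the highest sum in ASK1f/f replicate 2, Elane at up to 0.904 FPKM, and Mpo and Ctsg under 0.1 FPKM in every library. The part of these precursors in the values of the cell cycle genes was not tested. In whole liver, fewer cells of a type and less RNA per cell cannot be told apart.

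Promoter sequences from RefSeq on build GRCm38.p6, from 250 bases before to 50 bases after each start site, were matched by symbol for 34 of the 42 genes, with no entry for Ccna2, Aurkb, Kif20a, Tpx2, Mcm4, Ccnd1, Ccne2 and Foxm1. Each was searched on both strands for the NF-Y motif CCAAT, for the cell cycle homology region (either TTTGAA or the palindrome TTTAAA), and for the E2F motif, taken as TTTCGCG, as the variant TTTGGCG, or as the variant TTCCCGC. None of these letter strings contains another, but matches may overlap. The stretches below are shown as examples of mitosis genes (Cdk1, Top2a, Mki67 and Birc5) and of replication genes (Mcm6 and Mcm2). They run 5′ to 3′ on the strand of the gene, they end at or before its annotated start, and capitals mark the matches in either orientation.
Cdk1 (chr10:69352939-69353047, minus strand): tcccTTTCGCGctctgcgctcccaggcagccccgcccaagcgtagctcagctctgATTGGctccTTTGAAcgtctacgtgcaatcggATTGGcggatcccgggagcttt
Top2a (chr11:99024190-99024324, minus strand): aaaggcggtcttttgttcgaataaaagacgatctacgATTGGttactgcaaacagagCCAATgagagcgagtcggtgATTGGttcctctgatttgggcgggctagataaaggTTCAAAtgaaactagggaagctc
Mki67 (chr7:135716380-135716514, minus strand): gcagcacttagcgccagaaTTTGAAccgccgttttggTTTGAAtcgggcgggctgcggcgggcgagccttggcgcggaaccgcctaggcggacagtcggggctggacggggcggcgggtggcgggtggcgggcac
Mcm6 (chr1:128359706-128359840, minus strand): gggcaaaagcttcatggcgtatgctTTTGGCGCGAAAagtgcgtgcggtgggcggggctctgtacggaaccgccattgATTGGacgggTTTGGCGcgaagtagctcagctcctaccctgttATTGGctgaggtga
Mcm2 (chr6:88898781-88898915, minus strand): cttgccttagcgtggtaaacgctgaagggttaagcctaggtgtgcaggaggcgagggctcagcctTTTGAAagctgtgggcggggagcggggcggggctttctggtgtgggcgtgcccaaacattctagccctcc
Birc5 (chr11:117849102-117849236, plus strand): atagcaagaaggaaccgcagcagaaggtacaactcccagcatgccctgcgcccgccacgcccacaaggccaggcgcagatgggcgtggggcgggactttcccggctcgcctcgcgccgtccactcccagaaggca
Cdk1, the kinase that drives entry into mitosis, held an E2F motif, 2 CCAAT boxes as ATTGG and the region TTTGAA in the stretch shown. Top2a, the topoisomerase that untangles chromosomes, held 3 CCAAT boxes and TTCAAA. In Mki67, the gene of the proliferation marker Ki-67, the stretch held TTTGAA 2 times. Mcm6, a subunit of the replicative helicase, held 3 matches to E2F motifs, 2 of which overlap on opposite strands, and 2 CCAAT boxes, while Mcm2 held TTTGAA alone and Birc5, an inhibitor of apoptosis that also serves in the chromosomal passenger complex, held none of these letters in its stretch.

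Over the whole promoter windows, 19 of the 21 mitosis genes with an entry (90.5%) held CCAAT and 19 (90.5%) held the homology region, and 18 (85.7%) held both. Among the 10 replication genes with an entry, 8 (80.0%) held CCAAT, 4 (40.0%) the homology region and 3 (30.0%) both. The E2F motif was in 5 of these 10 (50%) and in 2 of the 21 mitosis genes (9.52%). Of the 27025 genes with promoters of the same length in the table, 41.1% held CCAAT, 30.6% the homology region, 13.4% both, and 7.64% an E2F motif. These matches are a description of the letters and do not show binding.

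The 42 genes were expressed at low levels. The median level over the 10 livers was 0.326 FPKM for the middle gene of the 42, and 25 of the 42 stood under 0.5 FPKM, against a median of 3.07 FPKM over the 13261 genes tested. Since FPKM are per length, levels can be set side by side between genes. The 11 replication genes ranged from 0.542 FPKM (Mcm5) to 8.75 FPKM (Pcna) with a median of 1.07 FPKM. The 25 mitosis genes ranged from 0.0158 FPKM (Bub1) to 1.39 FPKM (Aurka) with a median of 0.176 FPKM, and 23 of them lay below the lowest replication gene. At the depth of the median library, all 11 replication genes had at least 10 reads in every liver, which 4 of the 25 mitosis genes had.

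**Figure D1:**
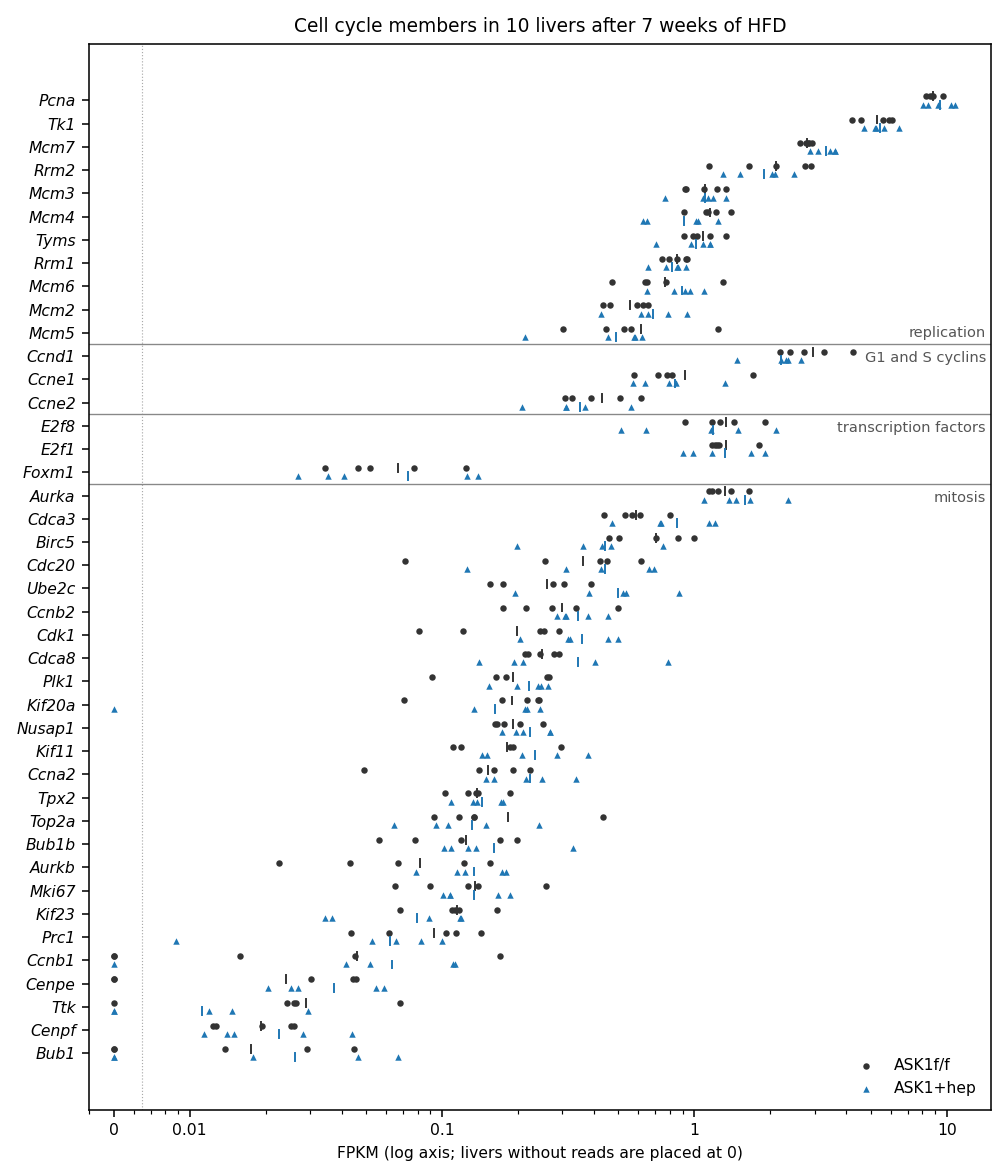
FPKM of the 42 genes in each liver, on a log axis, grouped by function and ordered by median; circles are the 5 libraries labelled ASK1f/f, triangles the 5 labelled ASK1+hep, vertical ticks the group means, and points at 0 are libraries without a read. Replication genes lie between 0.542 and 8.75 FPKM in the median and mitosis genes between 0.0158 and 1.39 FPKM, and the symbols of both genotypes overlap for every gene tested.

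The comparison of the genotypes asked whether livers with ASK1 switched on in hepatocytes differed in the cell cycle genes. Of the 42 genes, 31 passed the filter (10 or more reads at the depth of the median library, in 5 or more livers) and were tested with limma on log2(FPKM + 1), and 11 (Ccnb1, Ccnb2, Aurkb, Bub1, Bub1b, Plk1, Ttk, Cenpe, Cenpf, Tpx2 and Foxm1) did not. None of the 31 passed a Benjamini-Hochberg adjusted p of 0.05 in limma, where 0% of all 13261 genes did. The lowest adjusted p in limma was 0.813 among the 31 and 0.349 over all genes. Fgf21, which the paper reports as highly upregulated in ASK1+hep livers, was thus not called here either. It stood at 2.46 to 4.74 FPKM in ASK1f/f and at 7.405 to 30.1 FPKM in ASK1+hep, without overlap. The lack of calls therefore does not show that the cell cycle genes were unchanged. An unadjusted p under 0.05 was found for 2 of 31, or 6.45%, against 5.77% of all genes (3.05% higher and 2.71% lower in ASK1+hep), and both, Cdk1 and Ube2c, were higher in ASK1+hep. With limma-voom on the recovered reads, 1 of the 31, Cdk1, was under 0.05, beside 728 of all 13261 genes. The groups overlapped for all 31, and did not for 0.86% of all genes. The estimate was higher in ASK1+hep for 14 and lower for 17, with a median log2 difference (ASK1+hep minus ASK1f/f, as throughout) of -0.0015, against -0.0065 over all genes tested, of which 48.1% were higher. When FPKM were rescaled by all reads on genes, the median over all genes was -0.052, and the share of higher genes among those under 0.05 was 31.5% where it was 52.9% before. With that scaling 3 of the 31 were under 0.05 (Birc5, Cdk1 and Ube2c), beside 857 of all 13261 genes.

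Log2 differences on the scale of log2(FPKM + 1) understate the difference of genes under 1 FPKM, so the limma-voom estimate on reads is given beside it for those genes where they were tested. With 1 liver left out at a time, the estimates of 26 of the 31 moved by over 1.5 times or turned sign in at least 1 fit. The median over the 11 replication genes was -0.0015 and over the 15 mitosis genes tested 0.062, with 5 and 9 of them higher in ASK1+hep. On the limma-voom scale the medians were -0.0032 and 0.20, beside -0.016 for all genes. Without the library labelled ASK1f/f replicate 5, 3 of the 29 genes tested were under 0.05 unadjusted in limma (Ccnd1, Cdk1 and Mcm6). Over all genes, 769 of 13105 were under 0.05 in that fit. None of the 29 passed the adjusted threshold.

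**Figure D2:**
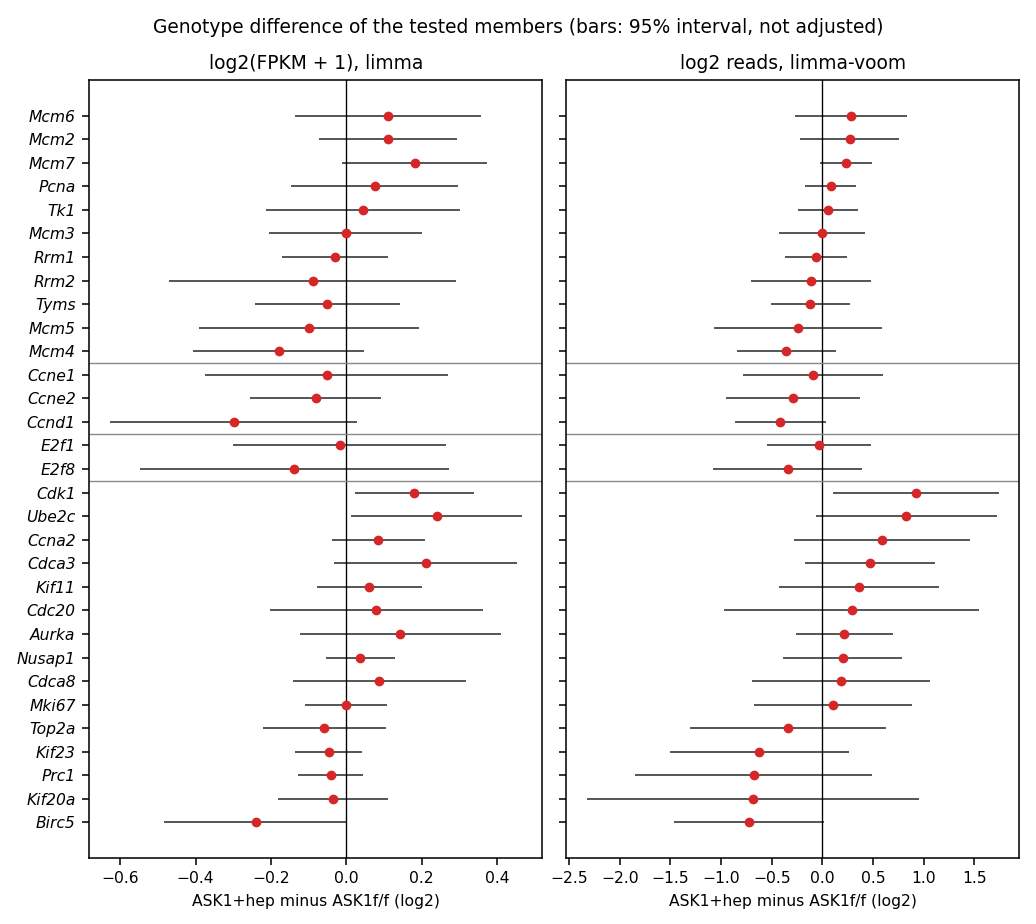
Difference between genotypes (ASK1+hep minus ASK1f/f, log2) of the 31 genes tested, on the scale of log2(FPKM + 1) at left and of reads with limma-voom at right, ordered within function by the limma-voom estimate; points are estimates and bars 95% intervals, not adjusted for the number of genes. The interval lies above 0 for Cdk1 in both panels and for Ube2c at left only, and that of every other gene includes 0.

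The G1 and S cyclins stand at the entry to the cycle. Cyclin D1 (Ccnd1), which with its kinase phosphorylates the retinoblastoma protein, stood at 4.25, 3.25, 2.73, 2.40 and 2.19 FPKM under the ASK1f/f label, against 2.64, 2.30, 1.48, 2.20 and 2.36 FPKM under ASK1+hep. The 3 highest values were in libraries labelled ASK1f/f, replicates 1 to 3, and the remaining 2 of that genotype lay within the range of ASK1+hep. The means were 2.96 ± 0.821 FPKM for ASK1f/f against 2.20 ± 0.432 FPKM for ASK1+hep (SD, n = 5 each), a log2 difference of -0.30 (SE 0.15), with p = 0.095 in the exact permutation test (two-sided), and with 1 liver left out it ran from -0.37 (without the library labelled ASK1f/f replicate 5) to -0.19 (without ASK1f/f replicate 1, the highest). Ccnd1 overlaps Oraov1 on the opposite strand, and whether reads were counted by strand is not given in the sources used here.

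Cyclin E1 (Ccne1), which with CDK2 starts replication, stood at 1.71, 0.716, 0.578, 0.814 and 0.781 FPKM under the ASK1f/f label, against 0.793, 0.639, 0.845, 1.32 and 0.573 FPKM under ASK1+hep. The value of ASK1f/f replicate 1 stood apart from the other 4 of its group, and the groups overlapped. Its log2 difference was -0.052 (SE 0.15), -0.095 with limma-voom, and 0.079 without that library. Cyclin E2 (Ccne2) stood at 0.308, 0.327, 0.612, 0.508 and 0.390 FPKM under the ASK1f/f label, against 0.369, 0.310, 0.208, 0.310 and 0.561 FPKM under ASK1+hep. Its 2 highest values were ASK1f/f replicate 3 and ASK1+hep replicate 5, and the log2 difference was -0.081 (SE 0.079), or -0.29 with limma-voom, with -0.037 on leaving out that ASK1f/f library and -0.13 on leaving out that of ASK1+hep. All 3 cyclins were lower in ASK1+hep by estimate and none passed the test.

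The transcription factors gave no call either. E2f1, an activator of S phase genes, stood at 1.80, 1.21, 1.25, 1.23 and 1.17 FPKM under the ASK1f/f label, against 1.90, 1.18, 0.897, 1.67 and 0.990 FPKM under ASK1+hep. Replicate 1 was the highest library of each genotype, and the log2 difference was -0.017 (SE 0.13), 0.051 without ASK1f/f replicate 1 and -0.041 without the library labelled ASK1f/f replicate 5. E2f8, a repressor of E2F targets that takes part in the polyploidy of hepatocytes, stood at 1.18, 1.90, 0.921, 1.27 and 1.43 FPKM under the ASK1f/f label, against 1.16, 2.10, 1.49, 0.510 and 0.640 FPKM under ASK1+hep. Replicates 4 and 5 of ASK1+hep were the lowest of the 10 and replicate 2 the highest, and the log2 difference was -0.14 (SE 0.19). This value rested on single livers, since it was -0.018 on leaving out ASK1+hep replicate 4, -0.048 on leaving out replicate 5, -0.057 without ASK1f/f replicate 2, but -0.28 when ASK1+hep replicate 2 was left out. E2f8 had the largest spread over counting error of the 42 genes, a ratio of 4.25, and overlaps Gm2788 on the opposite strand. Foxm1, the activator of the mitosis programme, stood at 0.0520, 0.0773, 0.0465, 0.0343 and 0.124 FPKM under the ASK1f/f label, against 0.0408, 0.0269, 0.139, 0.0353 and 0.126 FPKM under ASK1+hep and had at most 11 reads in a library, too few to be tested.

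Among the replication genes, those of the MCM helicase, which unwinds DNA at the fork, had estimates of both signs. Mcm7 (ENSMUSG00000029730) lies on the minus strand at chr5:138164583-138172422 of GRCm38 and stood at 2.86, 2.93, 2.78, 2.63 and 2.82 FPKM under the ASK1f/f label, against 2.86, 3.62, 3.44, 3.60 and 3.08 FPKM under ASK1+hep. The 3 highest values were ASK1+hep replicates 2 to 4, and ASK1+hep replicate 1 lay within the range of ASK1f/f. The means were 2.80 ± 0.111 FPKM for ASK1f/f against 3.32 ± 0.334 FPKM for ASK1+hep (SD, n = 5 each), a log2 difference of 0.18 (SE 0.088) and an unadjusted limma p of 0.062, with p = 0.016 in the exact permutation test (two-sided), whose smallest possible p is 0.0079. It was the only one of the 31 under 0.05 in that test. The exact test was not run over all genes, so no share over all genes can be set beside this count. Mcm7 overlaps Cops6 on the opposite strand, which stood at 34.3 to 43.0 FPKM in ASK1f/f and 36.3 to 50.2 FPKM in ASK1+hep, and its part in the Mcm7 value was not tested.

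Mcm2 stood at 0.654, 0.593, 0.461, 0.434 and 0.626 FPKM under the ASK1f/f label, against 0.615, 0.656, 0.783, 0.935 and 0.428 FPKM under ASK1+hep. ASK1+hep replicates 4 and 3 were the highest and replicate 5 the lowest, and the log2 difference was 0.11 (SE 0.083), or 0.27 with limma-voom, and 0.058 without ASK1+hep replicate 4. Mcm6 stood at 0.770, 0.640, 0.473, 0.648 and 1.30 FPKM under the ASK1f/f label, against 0.829, 0.646, 0.918, 1.09 and 0.965 FPKM under ASK1+hep. The highest value was that of the library labelled ASK1f/f replicate 5, and the difference was 0.11 (SE 0.11) with it, 0.28 with limma-voom, 0.21 without it and 0.049 without ASK1f/f replicate 3. Mcm4 was lower in ASK1+hep by estimate, at 1.15 ± 0.175 FPKM for ASK1f/f against 0.913 ± 0.268 FPKM for ASK1+hep (SD, n = 5 each), a log2 difference of -0.18 (SE 0.10), or -0.36 with limma-voom. Mcm5 was at 0.614 ± 0.362 FPKM for ASK1f/f against 0.489 ± 0.166 FPKM for ASK1+hep (SD, n = 5 each) and Mcm3 at 1.10 ± 0.184 FPKM for ASK1f/f against 1.10 ± 0.210 FPKM for ASK1+hep (SD, n = 5 each), log2 differences of -0.098 (SE 0.13), or -0.24 with limma-voom, and -0.0015 (SE 0.093), or 0.038 without the library labelled ASK1f/f replicate 5. The Mcm5 mean of ASK1f/f rested on 1 library, the one labelled replicate 5 at 1.24 FPKM, without which it was 0.458 ± 0.115 FPKM (SD, n = 4) and the log2 difference 0.026.

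Pcna, the sliding clamp of the polymerases and the most highly expressed of the 42 genes, stood at 8.31, 8.57, 9.67, 8.71 and 8.80 FPKM under the ASK1f/f label, against 9.24, 8.41, 10.4, 8.07 and 10.7 FPKM under ASK1+hep. ASK1+hep held both the lowest value, replicate 4, and the 2 highest, replicates 5 and 3. The log2 difference was 0.075 (SE 0.10), with a 95% interval of -0.15 to 0.30, and 0.029 to 0.12 with 1 of these 3 livers left out. Tk1, the thymidine kinase of nucleotide salvage, stood at 5.58, 4.23, 6.08, 5.92 and 4.59 FPKM under the ASK1f/f label, against 5.63, 5.27, 6.45, 4.70 and 5.20 FPKM under ASK1+hep. The groups overlapped with a log2 difference of 0.043 (SE 0.12), 0.0040 without the library labelled ASK1f/f replicate 5 and -0.024 when scaled by all reads, and Tk1 overlaps Afmid, which is on the opposite strand and stood at 5.64 to 11.7 FPKM.

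Of the enzymes of nucleotide synthesis, Rrm1, the large subunit of ribonucleotide reductase, stood at 0.745, 0.796, 0.929, 0.931 and 0.850 FPKM under the ASK1f/f label, against 0.863, 0.773, 0.653, 0.855 and 0.923 FPKM under ASK1+hep. Its lowest value was ASK1+hep replicate 3 and its highest ASK1f/f replicates 4 and 3, with a log2 difference of -0.030 (SE 0.065), or -0.063 with limma-voom. Rrm2, the small subunit that limits the enzyme in S phase, stood at 2.75, 1.15, 2.89, 2.11 and 1.64 FPKM under the ASK1f/f label, against 2.48, 2.04, 1.52, 1.30 and 2.10 FPKM under ASK1+hep. ASK1f/f replicate 2 was the lowest of the 10 and replicate 3 of the same genotype the highest, and the log2 difference was -0.089 (SE 0.17), or -0.14 without the library labelled ASK1f/f replicate 5. Tyms, the thymidylate synthase, stood at 1.15, 1.02, 0.988, 1.34 and 0.907 FPKM under the ASK1f/f label, against 0.703, 1.08, 1.16, 1.16 and 0.966 FPKM under ASK1+hep. The highest value was ASK1f/f replicate 4 and the lowest ASK1+hep replicate 1, and the other 8 overlapped. The log2 difference was -0.050 (SE 0.088), or -0.081 without the library labelled ASK1f/f replicate 5.

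The lowest unadjusted limma p-values among the 31 genes tested were those of the mitosis genes Cdk1 and Ube2c. Cdk1 (ENSMUSG00000019942) lies on the minus strand at chr10:69335146-69352938 of GRCm38 and stood at 0.121, 0.245, 0.0813, 0.253 and 0.290 FPKM under the ASK1f/f label, against 0.321, 0.204, 0.500, 0.316 and 0.456 FPKM under ASK1+hep. The 4 highest values were of ASK1+hep, and ASK1+hep replicate 2 lay below 3 of the libraries labelled ASK1f/f. The means were 0.198 ± 0.0910 FPKM for ASK1f/f against 0.359 ± 0.119 FPKM for ASK1+hep (SD, n = 5 each), a ratio of 1.81, and the log2 difference was 0.18 (SE 0.072) on the scale of log2(FPKM + 1) and 0.92 with limma-voom (95% interval 0.10 to 1.74). The adjusted p was 0.813 in limma with Benjamini-Hochberg adjustment, and the exact permutation test (two-sided) gave p = 0.063. These values rest on 6 to 34 reads per library. With 1 liver left out at a time, Cdk1 was under an unadjusted p of 0.05 in 6 of 10 fits and Ube2c in 4 of 10. Neither was on leaving out replicate 3 of either genotype or ASK1f/f replicate 1, Cdk1 was not without ASK1+hep replicate 5, and Ube2c was not without ASK1+hep replicates 2 or 4 or the library labelled ASK1f/f replicate 5. With quality weights Cdk1 was not under 0.05 either.

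Of the partner cyclins only Ccna2 was tested. Cyclin A2 (Ccna2) stood at 0.191, 0.140, 0.0491, 0.161 and 0.223 FPKM under the ASK1f/f label, against 0.215, 0.341, 0.249, 0.149 and 0.160 FPKM under ASK1+hep. ASK1f/f replicate 3 was the lowest and ASK1+hep replicate 2 the highest, and the difference was 0.085 (SE 0.057), or 0.59 with limma-voom (95% interval -0.28 to 1.46). Cyclin B1 (Ccnb1) stood at 0, 0.0452, 0.0159, 0 and 0.169 FPKM under the ASK1f/f label, against 0.0417, 0.110, 0, 0.112 and 0.0516 FPKM under ASK1+hep. It had no read in 3 libraries, which allows up to 0.0426 to 0.0516 FPKM (3 reads in a library), and at most 11 reads in any, the highest being the library labelled ASK1f/f replicate 5. Without that library the Ccnb1 means were 0.0153 ± 0.0213 FPKM for ASK1f/f (SD, n = 4) against 0.0632 ± 0.0480 FPKM for ASK1+hep (SD, n = 5). Ccnb2 ranged from 0.175 to 0.498 FPKM, from 4 to 12 reads, and its highest and lowest values were both in libraries labelled ASK1f/f.

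Of the spindle and checkpoint kinases, Aurka, which matures centrosomes, was the only one tested. It stood at 1.40, 1.18, 1.24, 1.14 and 1.64 FPKM under the ASK1f/f label, against 1.09, 1.47, 2.35, 1.66 and 1.38 FPKM under ASK1+hep, the highest level of the mitosis genes, with a log2 difference of 0.14 (SE 0.12). ASK1+hep replicate 3 was the highest and replicate 1 the lowest, so the spread within ASK1+hep spanned all 10, and without that highest liver the difference was 0.046. Aurkb, Plk1, Bub1, Bub1b and Ttk had at most 24 reads in a library. Bub1b, a checkpoint kinase, was highest in ASK1+hep replicate 1 at 0.329 FPKM and Plk1, which acts from mitotic entry to division, ranged from 0.0912 to 0.266 FPKM.

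The anaphase promoting complex ends mitosis with Ube2c, its ubiquitin-conjugating enzyme, and Cdc20, its activator. Ube2c (ENSMUSG00000001403) lies on the plus strand at chr2:164769898-164778822 of GRCm38 and stood at 0.276, 0.391, 0.154, 0.303 and 0.175 FPKM under the ASK1f/f label, against 0.383, 0.535, 0.865, 0.521 and 0.195 FPKM under ASK1+hep. ASK1+hep replicates 2 to 4 were the 3 highest and replicate 5 was the third lowest of the 10, so the groups overlapped. The means were 0.260 ± 0.0970 FPKM for ASK1f/f against 0.500 ± 0.246 FPKM for ASK1+hep (SD, n = 5 each), a ratio of 1.92, with a log2 difference of 0.24 (SE 0.10), or 0.83 with limma-voom (95% interval -0.062 to 1.73), an adjusted p of 0.813 in limma with Benjamini-Hochberg adjustment and p = 0.063 in the exact permutation test. Without ASK1+hep replicate 3 its log2 difference was 0.16. Reads may be shared with the Ube2c pseudogene AC151284.1, which had at most 11 reads in a library, and the value is uncertain to that extent. Cdc20 ranged from 0.0716 to 0.689 FPKM with a log2 difference of 0.080 (SE 0.13), or 0.29 with limma-voom, and it overlaps Elovl1 on the opposite strand.

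The chromosomal passenger complex corrects attachments of chromosomes to the spindle. Birc5 stood at 0.458, 0.859, 0.707, 0.502 and 0.993 FPKM under the ASK1f/f label, against 0.431, 0.750, 0.469, 0.199 and 0.363 FPKM under ASK1+hep. The 2 highest values were of libraries labelled ASK1f/f, replicates 5 and 2, and the lowest was ASK1+hep replicate 4. The means were 0.704 ± 0.229 FPKM for ASK1f/f against 0.442 ± 0.201 FPKM for ASK1+hep (SD, n = 5 each), a log2 difference of -0.24 (SE 0.11), or -0.72 with limma-voom (95% interval -1.47 to 0.021) and -0.18 without the library labelled ASK1f/f replicate 5, and the exact permutation test gave p = 0.087. Cdca8, the borealin subunit, was at 0.250 ± 0.0347 FPKM for ASK1f/f against 0.347 ± 0.265 FPKM for ASK1+hep (SD, n = 5 each), a log2 difference of 0.088 (SE 0.11), or 0.18 with limma-voom, and of -0.019 without ASK1+hep replicate 3. Birc5 and Cdca8 thus had estimates of opposite sign.

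Of the motors and spindle proteins, Kif23, a motor needed for cytokinesis, stood at 0.0682, 0.113, 0.110, 0.116 and 0.164 FPKM under the ASK1f/f label, against 0.0891, 0.117, 0.119, 0.0343 and 0.0368 FPKM under ASK1+hep. ASK1+hep replicates 4 and 5 were the lowest, and the difference was -0.046 (SE 0.041), or -0.62 with limma-voom (95% interval -1.51 to 0.26), and -0.030 without the library labelled ASK1f/f replicate 5, which was the highest. Prc1, which cross-links microtubules of the midzone, stood at 0.0437, 0.0618, 0.114, 0.104 and 0.142 FPKM under the ASK1f/f label, against 0.0998, 0.0658, 0.00882, 0.0823 and 0.0530 FPKM under ASK1+hep. It had 1 to 18 reads and a difference of -0.041 (SE 0.040), or -0.68 with limma-voom, and without its highest library, again that labelled ASK1f/f replicate 5, it did not pass the filter. Kif11, which separates the spindle poles, and Nusap1, which stabilises microtubules, had differences of 0.062 (SE 0.064) and 0.038 (SE 0.042), or 0.36 and 0.20 with limma-voom. That of Kif11 was 0.096 without the library labelled ASK1f/f replicate 5 and 0.020 on leaving out ASK1+hep replicate 4. Kif20a, which had no read in ASK1+hep replicate 3 (0 reads allow up to 0.0574 FPKM), had -0.035 (SE 0.067), or -0.69 with limma-voom, with -0.020 without the library labelled ASK1f/f replicate 5 and 0.018 on leaving out ASK1+hep replicate 3. Cenpe, Cenpf and Tpx2 had at most 13 reads in a library.

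Mki67 stood at 0.0893, 0.139, 0.126, 0.0653 and 0.258 FPKM under the ASK1f/f label, against 0.187, 0.108, 0.101, 0.108 and 0.166 FPKM under ASK1+hep. The highest was the library labelled ASK1f/f replicate 5, and the groups overlapped with means of 0.136 ± 0.0746 FPKM for ASK1f/f against 0.134 ± 0.0395 FPKM for ASK1+hep (SD, n = 5 each), a log2 difference of -0.00064 (SE 0.050) and a limma-voom estimate of 0.11 (95% interval -0.67 to 0.89). Without that library the ASK1f/f mean was 0.105 ± 0.0338 FPKM (SD, n = 4) and the log2 difference 0.037. Top2a stood at 0.0930, 0.134, 0.134, 0.117 and 0.433 FPKM under the ASK1f/f label, against 0.150, 0.0944, 0.0644, 0.105 and 0.242 FPKM under ASK1+hep. The library labelled ASK1f/f replicate 5 again stood above all others, and the log2 difference of -0.058 (SE 0.075), or -0.34 with limma-voom, became 0.013 without it. Cdca3, which promotes the degradation of the mitosis inhibitor Wee1, stood at 0.439, 0.532, 0.606, 0.802 and 0.567 FPKM under the ASK1f/f label, against 0.471, 0.729, 1.14, 1.21 and 0.735 FPKM under ASK1+hep. Its 2 highest values were ASK1+hep replicates 4 and 3, and the log2 difference was 0.21 (SE 0.11), or 0.47 with limma-voom, with p = 0.13 in the exact permutation test (two-sided).

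The spread within a genotype was larger than counting error for 37 of the 42 genes. Over the 42 genes the median ratio of the within-genotype coefficient of variation (the SD as a percent of the mean) to that of counting was 1.69, from 0.647 for Tpx2 to 4.25 for E2f8. Mcm7 was among the least variable, with a coefficient of 8.13% where counting alone gives 6.99%, while Ccnd1 and Top2a stood at 3.44 and 3.27 times counting error. For Tpx2 and Nusap1 the depth sets the limit, since their spread lay below that of counting error.

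**Figure D3:**
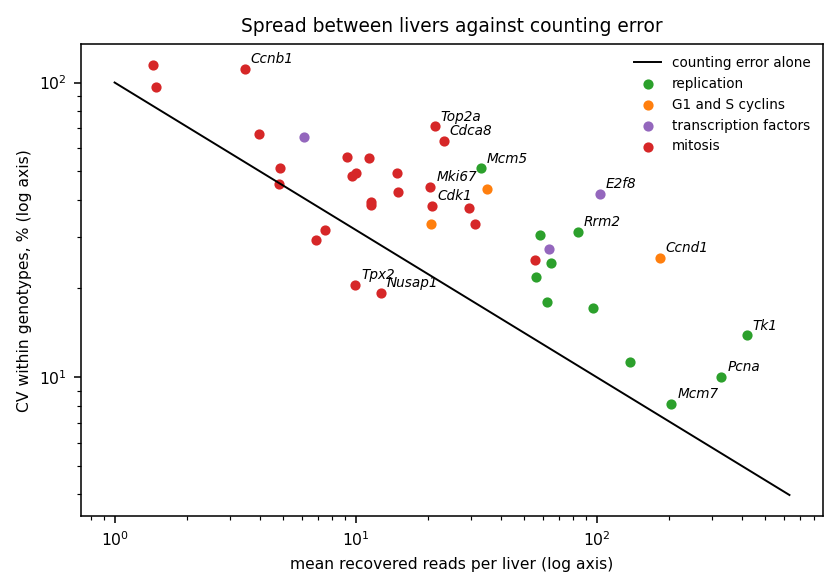
Coefficient of variation within genotypes against mean recovered reads per liver for each of the 42 genes, both on log axes; the line is counting error alone and colours are the functional groups. Replication genes sit at the right with more reads, 37 of 42 genes lie above the line, and E2f8 lies farthest above it at 4.25 times counting error.

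**Figure D4:**
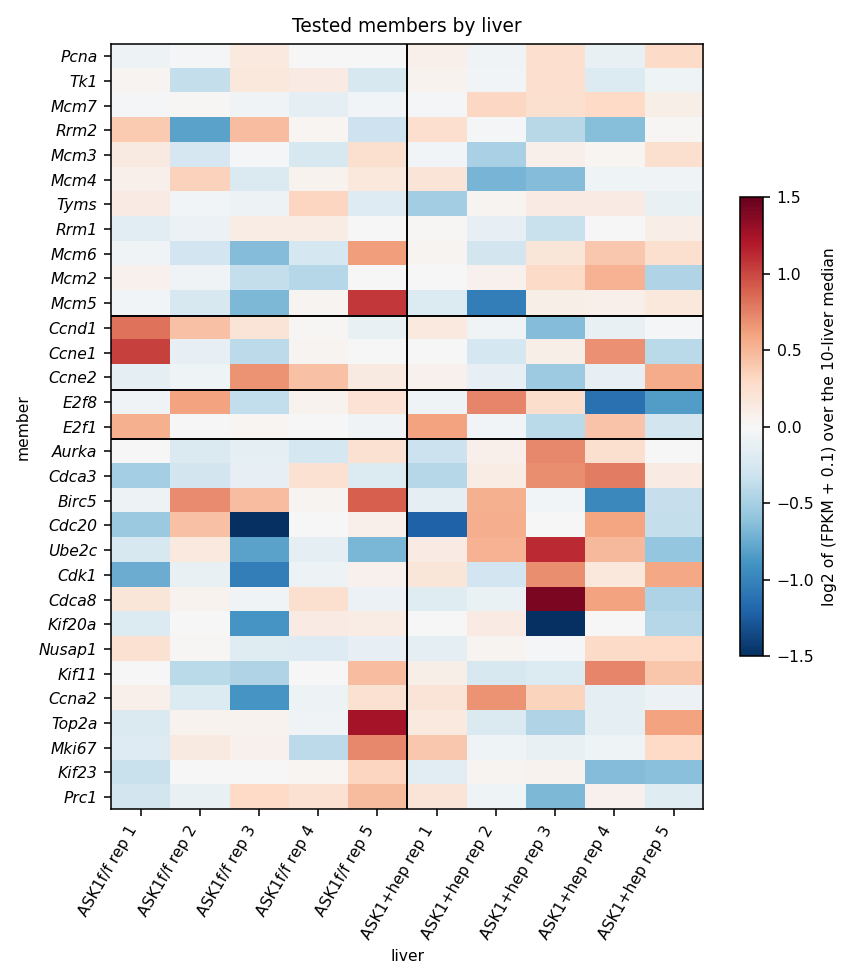
The 31 genes tested in each liver as log2 of (FPKM + 0.1) over the median of the 10 livers; red is above and blue below that median, rows are grouped by function and the vertical line separates the genotypes. The library labelled ASK1f/f replicate 5 is red for Top2a (0.433 FPKM) and Mcm5 (1.24 FPKM), and ASK1+hep replicate 3 for Cdca8 (0.785 FPKM) and Ube2c (0.865 FPKM).

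Of the 25 mitosis genes, 15 had their highest value in an ASK1+hep library and 10 in one labelled ASK1f/f, and of the 20 with reads in every liver, 13 had their lowest value under the ASK1f/f label and 7 under ASK1+hep. The library labelled ASK1f/f replicate 5 was the highest of the 10 for 7 of the 25 and ASK1+hep replicate 3 for 5, while ASK1f/f replicate 3 was the lowest for 8 of the 20. Such counts were not made over all genes tested, so they do not show a tilt particular to the mitosis genes. Reads of the mitosis genes together made up 19.0, 22.0, 18.4, 21.9 and 32.3 RPM (reads scaled to the library total) under the ASK1f/f label, against 22.9, 23.1, 25.6, 25.7 and 23.7 RPM under ASK1+hep. The library labelled ASK1f/f replicate 5 was the highest and the other 4 of its label were the lowest. That library also had the highest marker sums of macrophages, neutrophils, natural killer cells (0.834 FPKM) and cholangiocytes (30.9 FPKM). Its marker sums of hepatocytes and stellate cells (22.7 FPKM) were the lowest of the 10. With that library the groups overlapped, and without it the ranges of 18.4 to 22.0 and 22.9 to 25.7 did not. Summed as FPKM, the mitosis genes gave 5.89 ± 1.19 in ASK1f/f (SD, n = 5) and 6.95 ± 1.14 in ASK1+hep (SD, n = 5), and without that library 5.45 ± 0.768 (SD, n = 4), with overlap in each case. No test is given for these sums over chosen genes, and the part of the cell types named above in the sums was not tested.

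The replication genes summed to 25.1 ± 1.46 FPKM in ASK1f/f (SD, n = 5) and 25.9 ± 1.67 FPKM in ASK1+hep (SD, n = 5), and their reads made up 89.2 to 110 RPM. The ratio of summed replication to summed mitosis FPKM was 5.04, 3.54, 5.75, 4.45 and 3.30 under the ASK1f/f label, against 4.62, 3.41, 3.27, 3.27 and 4.50 under ASK1+hep. The groups overlapped, at 4.42 ± 1.02 and 3.81 ± 0.684 (SD, n = 5 each), and still did without the library labelled ASK1f/f replicate 5, when the ASK1f/f ratio was 4.70 ± 0.934 (SD, n = 4).

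**Figure D5:**
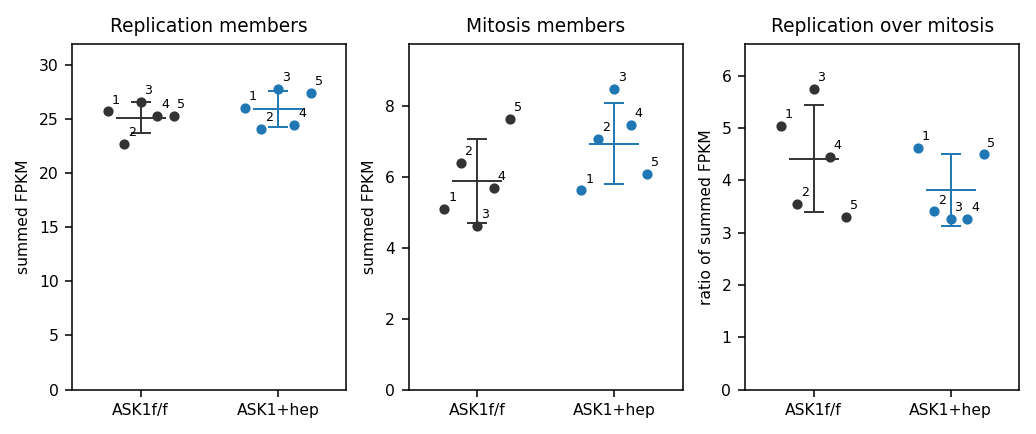
Summed FPKM of the 11 replication genes and the 25 mitosis genes, and the ratio of the sums, in each liver; points are livers with their replicate numbers, and the bars are mean and SD of 5 livers. The replication sums lie between 22.7 and 27.8 FPKM and the mitosis sums between 4.62 and 8.49 FPKM, and the genotypes overlap in all 3 panels.

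The rest of the replication machinery was examined as a list of 47 further genes, of which 37 passed the filter, 0 were called and 1 (2.70%) was at an unadjusted p under 0.05, against 5.77% of all genes. That gene was Prim1, the primase subunit that starts each strand. It stood at 0.526, 0.460, 0.622, 0.408 and 0.554 FPKM under the ASK1f/f label, against 0.819, 0.860, 0.788, 0.910 and 1.20 FPKM under ASK1+hep. All 5 ASK1+hep values lay above all 5 of ASK1f/f, and 0.86% of all genes tested were without overlap in either direction. The log2 difference was 0.34 (SE 0.072), or 0.82 with limma-voom. The exact permutation p (two-sided) of Prim1 was 0.0079, the smallest possible, which any full separation of the groups gives. Its adjusted p was 0.715 in limma with Benjamini-Hochberg adjustment. Gmnn, an inhibitor of licensing, and Rpa3, a subunit of the single-strand binding protein, had log2 differences of 0.36 (SE 0.19) and 0.25 (SE 0.15) and did not pass, and that of Rpa3 was 0.13 without the library labelled ASK1f/f replicate 5.

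Of 56 further mitosis genes, 23 passed the filter, 0 were called and 1 (4.35%) was at an unadjusted p under 0.05, Spc25 of the NDC80 kinetochore complex. It stood at 1.39, 1.59, 1.09, 1.53 and 1.28 FPKM under the ASK1f/f label, against 1.56, 2.13, 3.44, 2.89 and 3.03 FPKM under ASK1+hep. ASK1+hep replicate 1 lay just below the highest of ASK1f/f and the other 4 above it, with a log2 difference of 0.58 (SE 0.14), an adjusted p of 0.715 in limma with Benjamini-Hochberg adjustment, and p = 0.016 in the exact permutation test. Spc24, which binds Spc25, stood at 5.68, 4.34, 5.22, 5.75 and 4.70 FPKM under the ASK1f/f label, against 7.498, 7.55, 17.97, 6.79 and 4.23 FPKM under ASK1+hep. ASK1+hep replicate 3 was far above the other 9, and the log2 difference of 0.54 (SE 0.27) became 0.27 without it. Nek2, a centrosome kinase, had a log2 difference of 0.26 (SE 0.16), or 0.64 with limma-voom.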

How the data were processed

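The 10 liver libraries were grouped by the genotype in the sample labels. Per the authors' methods, poly-A RNA was sequenced by a provider, reads were cleaned, mapped with Hisat2 and counted per gene with FeatureCounts, and per the labels fastp was among the tools. The table that the authors deposited gives FPKM, gene lengths and positions, and they tested with DESeq2, which was not repeated here. GENCODE M21 (GRCm38) holds 54495 of the 54532 gene IDs, and 98.3% of those had the same coordinates. The build, the annotation release and the strand setting of the counting are not given in the sources used here.

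Products of FPKM and gene length came in whole steps, 1 step size per library, within 0.01 reads for 100% of values, and gave 13367742 to 16163378 reads per library. The lowest chi-square per gene between any 2 libraries was 19.1, so no library was a copy of another. Genes with 10 or more reads at the depth of the median library in 5 or more livers were compared in R 4.3.3 by limma 3.58.1, applied to log2(FPKM + 1) with a mean-variance trend, no covariates and Benjamini-Hochberg adjustment over 13261 genes. Exact two-sided permutation tests of single genes ran over the 252 splits of 10 livers into groups of 5. The comparison was tested on simulated data. With 200 genes changed by a log2 of 1, it recovered 53% of them, and by a log2 of 2, 90%. The changed genes were drawn from all genes tested, with a median of 3.07 FPKM. These shares therefore do not hold for the cell cycle genes, most of which were lower, and recovery at their levels was not simulated. With no gene changed, 0 were called. Counting intervals (exact binomial, 95%) and the limit for 0 reads (3 reads) cover counting error only. Each library carries its own animal tag in the labels, and p-values measure the spread between these livers.

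The 42 genes and the other lists were chosen with earlier results of these data known. All members were to be accounted for, and from each other list the 3 genes with the lowest unadjusted p and Cdkn1a were to be named. Exact permutation p-values of genes picked by p come from the same livers and add no further support. Alternatives were no filter, a minimum of 10 reads in each liver, a pseudocount of 0.1, limma-voom on reads, the same with quality weights, scaling by all reads, the replicate number as a block, the prefix of the animal tag as a term, and each liver left out in turn. That minimum was counted at the depth of the median library. Promoter sequences are from RefSeq (GRCm38.p6), of which only bases outside the deposited gene body are printed. Pseudogenes and overlapping genes share reads in ways the deposited values do not separate: 19 of the 42 genes overlap another annotated gene, 12 of them a protein-coding gene. Figures were drawn with matplotlib 3.10.9.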

Additional observations from a re-analysis of the deposited data

Results flagged for a closer look

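Of 66 sets of 5 values examined, 4 held a library far from the other 4 of its group by the gap to its nearest neighbour over the whole range, where chance gives about 1 in 20. The library labelled ASK1f/f replicate 5 had 0.433 FPKM of Top2a, and the other 4 had 0.0930 to 0.134 FPKM, a gap ratio of 0.880. Mcm5 was at 1.24 FPKM in the same library and at 0.301 to 0.559 FPKM in the others, a gap ratio of 0.724. Ccne1 was at 1.71 FPKM in ASK1f/f replicate 1 and at 0.578 to 0.814 FPKM in the others, a gap ratio of 0.791. E2f1 was at 1.80 FPKM in ASK1f/f replicate 1 and at 1.17 to 1.25 FPKM in the others, a gap ratio of 0.879.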

How the results depend on the processing

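None of the 31 genes passed the adjusted threshold under any of the 18 alternatives that gave it a value (lowest adjusted p 0.382). Of the 31, 18 kept their direction in every alternative that tested them, and 28 in those of the 8 with all livers that did. With at least 10 reads in every liver 20 were tested, with a liver left out 29 to 31, and 20 had a value under all 18. Over all genes, 1 was called with limma-voom with quality weights, and 0 to 1 with a liver left out (1 without ASK1+hep replicate 5). Of the 31 genes, 1 was at an unadjusted p under 0.05 with at least 10 reads in every liver (Birc5), 1 with limma-voom and 4 with the tag prefix, and 0 to 5 with a liver left out: 0 on leaving out replicate 3 of either label, 1 without ASK1f/f replicate 1 or ASK1+hep replicate 4, 5 without ASK1+hep replicate 1, and 4 without ASK1f/f replicate 4. Over all genes, 664 of 11745 were at an unadjusted p under 0.05 with at least 10 reads in every liver. With limma-voom they numbered 728 of 13261 and with the tag prefix 730 of 13261. Without a filter they numbered 1222. With a liver left out they numbered 544 to 1717 (1162 without ASK1+hep replicate 1 and 1717 without ASK1+hep replicate 5). The median difference of the mitosis genes was 0.12 with at least 10 reads in every liver, which left 4 of them on the same scale, and 0.19 with log2(FPKM + 0.1), 0.20 with limma-voom and 0.23 with quality weights, scales that shrink low genes less. It was 0.023 to 0.077 with a liver left out. That of the replication genes ran from -0.041 to 0.052.

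With the replicate block, 5 of the 31 were at an unadjusted p under 0.05 (Birc5, Ccnd1, Cdca3, Cdk1 and Ube2c) and 874 genes in all, and the block changed no adjusted call. Same-numbered libraries correlated at 0.0220 to 0.174 in their deviations and 4 of the 5 numbers correlated best with their own partner, a hint from the data. The animal tags of same-numbered libraries were adjacent numbers for replicates 1 to 4 and not for 5, and the labels do not say that a number marks a shared litter or day.

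Directions reversed for Mki67 (0.025 with log2(FPKM + 0.1), 0.11 with limma-voom, 0.34 with quality weights), Tk1 (-0.057 with quality weights, -0.024 scaled by all reads) and E2f1 (0.12 with quality weights). The cause was not tested. With a liver left out, the ranges that crossed 0 were -0.023 to 0.037 for Mki67, -0.092 to 0.013 for Top2a, -0.0033 to 0.17 for Cdc20, -0.073 to 0.018 for Kif20a, -0.019 to 0.14 for Cdca8, -0.041 to 0.060 for Mcm3, -0.17 to 0.026 for Mcm5, -0.052 to 0.0030 for Rrm1, -0.21 to 0.0012 for Rrm2, -0.081 to 0.0084 for Tyms, -0.020 to 0.090 for Tk1, -0.14 to 0.079 for Ccne1 and -0.10 to 0.052 for E2f1. Depth limits the mitosis genes most, since 21 of the 25 had under 10 reads in some liver at the depth of the median library.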

Other observations

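The brakes of the cell cycle were examined as a list of 27 genes, of which 23 passed the filter, 0 were called and 1 (4.35%) was at an unadjusted p under 0.05, beside 5.77% of all genes. That gene was E2f5, a repressor that acts with the pocket proteins, with a mean of 3.28 FPKM for ASK1f/f against 2.48 FPKM for ASK1+hep, a log2 difference of -0.31 (SE 0.13). Cdkn1a, the p53-induced inhibitor of cyclin-dependent kinases, stood at 0.489, 7.61, 2.65, 1.09 and 7.61 FPKM under the ASK1f/f label, against 1.83, 1.37, 1.98, 0.762 and 2.47 FPKM under ASK1+hep. ASK1f/f replicates 2 and 5 were the highest and replicate 1 the lowest of the 10, so the ASK1f/f libraries spanned the whole range, and the log2 difference was -0.56 (SE 0.46), or -0.27 without either of the 2 highest libraries and -0.90 without the lowest. Fbxw7, which marks cyclin E for degradation, and Cdkn1b, the inhibitor p27, had log2 differences of 0.19 (SE 0.089) and -0.19 (SE 0.14), and that of Cdkn1b ran from -0.27 to -0.076 with 1 liver left out.

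Of 17 further G1 cyclins and kinases, 16 passed the filter, 0 were called and 1 (6.25%) was at an unadjusted p under 0.05. That gene was Mnat1, the assembly factor of the CDK-activating kinase, at 1.51, 1.46, 1.45, 1.72 and 1.60 FPKM under the ASK1f/f label, against 0.915, 0.833, 0.890, 1.31 and 0.849 FPKM under ASK1+hep. All 5 values of ASK1+hep lay below all 5 of ASK1f/f, which 0.86% of all genes tested did in either direction. The log2 difference was -0.39 (SE 0.082), with an adjusted p of 0.715 in limma with Benjamini-Hochberg adjustment and an exact permutation p (two-sided) of 0.0079. Ccnd3, a D-type cyclin, and E2f2, an E2F activator, had log2 differences of 0.25 (SE 0.16) and 0.098 (SE 0.067), which ran from 0.14 to 0.37 and from 0.051 to 0.13 with 1 liver left out. With limma-voom the estimate of E2f2 was 0.83.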
